A study of Mus musculus with 29 samples.

Results

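Small nucleolar RNAs (snoRNAs) and small Cajal body RNAs were followed through neural differentiation of mouse embryonic stem cells. The set held every gene whose cluster carried a single symbol of the form Snord, Snora or Scarna with a number, and the highest cluster was taken where a gene had more than 1. Snord115, Snord116 and the other entries of the imprinted region between Ndn and Ube3a were left out by the rule. Among genes with a single symbol this removed 1 in all, Snord64. This gave 67 genes of 30142 with a single symbol, namely 43 box C/D snoRNAs (Snord), 18 box H/ACA snoRNAs (Snora) and 6 Cajal body RNAs (Scarna). A further 50 snoRNA symbols lay only in 42 clusters shared by several genes, so that a snoRNA and its carrier transcript had 1 common value there, and these are not described.

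RNA of 29 samples was hybridised to 1 Clariom D (MTA 1.0) array each, from 150 ng of total RNA. Feeder-free embryonic stem cells (mESC), neural precursor cells (NPC), midbrain neural precursors (mDPC) and cells labelled as mature midbrain neurons (MN) came from a wild-type line (WT) and from a line labelled BERKO, the knockout of estrogen receptor beta, gene Esr2. The mESC stage held 2 arrays of each genotype without LY3201, an agonist selective for that receptor. NPC and mDPC each held 2 arrays of each genotype with vehicle (DMSO) and 2 with 0.5 nM LY3201 for 4 days. At the MN stage there were 2 WT arrays without and 2 with LY3201, and 3 BERKO arrays without and 2 with it, and the length of treatment was not given. The 14 groups thus held 2 arrays each, except that of untreated MN labelled BERKO with 3. The design calls them biological replicates without naming separate cultures, so that p-values measure the spread between these arrays, which may be partly technical. In 2 groups, mESC labelled BERKO and treated WT NPC, both arrays bear the same number in their titles. Whether such a pair came from 1 culture is not given. The first treated MN arrays of both genotypes also share a number, 10.

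Esr2 went against the label. Its log2 value was 3.33 (median, 3.21 to 3.47) in the 14 arrays labelled WT and 4.23 (3.8 to 4.46) in the 15 arrays labelled BERKO, both near the median of the negative control probes (3.75 to 4.25 per array). Whether its cluster covers the deleted part of the gene was not tested, so "BERKO" below means the arrays with that label. Of the cell type markers, 6 of 6 pluripotency genes were high in mESC only (mean 14 to 14.1 per array, against at most 4.59 later). The 6 dopaminergic markers, Th and Slc6a3 among them, averaged 3.84 to 4.18 in every array, and none exceeded the negative controls' 95th percentile in any array. MN is therefore used as the name of a stage. The 4 astrocyte markers averaged 11.2 to 12.25 there and 10.39 to 10.72 in mDPC. Of these, Aldh1l1 read 5.35 to 6.81 in MN and 6.21 to 7.96 in mDPC. The 6 neuron markers averaged 7.43 to 10.15 in MN and 7.27 to 7.51 in mESC, where Stmn2 read 15.92 to 16.05. Map2 was lower in MN (11.92 to 12.6) than in NPC (13.24 to 13.9), and Rbfox3 exceeded the negative controls' 95th percentile in no array. In cultures that may be mixed, fewer cells of a type and less RNA per cell cannot be told apart.

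Box C/D snoRNAs form particles with fibrillarin that add methyl groups to the sugar of ribosomal RNA, and box H/ACA snoRNAs form particles with dyskerin that turn uridine into pseudouridine. A few of them, such as U8 (Snord118), U13 (Snord13), U14 (Snord14) and U17 (Snora73), act in the cleavage, folding or acetylation of the ribosomal RNA precursor. Cajal body RNAs guide the same reactions on spliceosomal RNAs. In vertebrates most of these RNAs are cut out of introns of host genes, many of which code for ribosomal proteins or other parts of the translation apparatus, and the level of the small RNA therefore depends on transcription of the host, on processing and on the stability of the particle.

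Most of the genes measured here lay within another gene, though neither strand nor position in an intron was tested. By the RefSeq annotation of assembly GRCm38.p6, 57 of the 67 lay within exactly 1 other gene, 6 within several and 4 (Scarna2, Snord118, Snord13 and Snord89) within none. A ribosomal protein gene enclosed 19 of them, and 9 lay only within noncoding genes. Members inside a Snhg gene, a class of noncoding snoRNA hosts, were Snora73a and Snora73b (Snhg3), Snora16a (Snhg12), Snora78 (Snhg9 and Rps2), Snord87 (Snhg6 and Mcmdc2) and Snord123 (Snhg18). Several members share a host: Snord11 and Snord70 lie in Nop58, Snora75 and Snord82 in Ncl, and Snord49a and Snord49b in 1 noncoding gene. Near-identical copies (Snora73a and Snora73b, the Snord14 forms, Snord35a and Snord35b) may share probes or signal, so that their values are not independent. Clusters were matched to RefSeq genes by name, and those of Snora73a and Snord14e are named as unmapped. Their link to a host therefore rests on the symbol alone.

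Start sites of 6 host genes are shown because changes of their members, in either direction, are described below. Each run is 100 bases, 50 before to 50 after the RefSeq start on the strand of the gene (GRCm38.p6), in lower case with the letters CCGGAAG, or CTTCCGG on the other strand, in capitals. Factors of the ETS family recognise such letters. The motif was chosen after the sequences had been looked at. Whether the letters go with the direction of change was not tested, and the 6 hosts shown cannot tell. Among hosts not shown, Gm36220 (Snord104) and a promoter of Zbed3 (Snora47) hold the letters in such a window, and both members rose. Rabggtb (Snord45b) and Nop58 (Snord11, Snord70) do not hold them, and their members fell.
Snhg3 (Snora73a, Snora73b), chr4:132353637-132353736, minus strand: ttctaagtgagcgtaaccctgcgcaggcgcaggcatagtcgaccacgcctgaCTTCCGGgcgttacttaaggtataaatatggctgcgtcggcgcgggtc
Eef1b2 (Snora41), chr1:63176781-63176880, plus strand: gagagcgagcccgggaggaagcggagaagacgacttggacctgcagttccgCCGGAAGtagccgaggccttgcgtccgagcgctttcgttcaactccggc
Rps3a1 (Snord73a), chr3:86142619-86142718, minus strand: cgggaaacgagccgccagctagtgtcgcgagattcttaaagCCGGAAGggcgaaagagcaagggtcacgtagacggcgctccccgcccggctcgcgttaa
Rpl37 (Snord72), chr15:5116563-5116662, plus strand: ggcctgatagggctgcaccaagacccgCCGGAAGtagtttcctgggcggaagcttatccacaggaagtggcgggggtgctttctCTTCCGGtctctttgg
Rbmx (Snord61), chrX:57392987-57393086, minus strand: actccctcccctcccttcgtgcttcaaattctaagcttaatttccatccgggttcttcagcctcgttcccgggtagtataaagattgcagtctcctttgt
Tpt1 (Snora31), chr14:75845206-75845305, plus strand: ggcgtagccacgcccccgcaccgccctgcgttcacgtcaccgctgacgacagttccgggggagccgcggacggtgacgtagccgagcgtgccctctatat

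The letters occurred on either strand in 16 of 51 promoters (31.4%) of genes around members, in windows of 300 bases (250 before to 50 after the start), and in 2910 of 32851 promoters (8.9%) in the whole table. The table covered 48 of the 63 genes around members, and some genes had more than 1 promoter in it. These are matches of letters, with no binding measured. Sequences of the snoRNAs themselves are not printed here.

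All values are the deposited log2 signals, and a difference of 1 is a 2-fold change. The 95th percentile of the negative controls lay between 6.63 and 7.66 per array, and 41 members exceeded it in all arrays, 14 in some and 12 in none. Those 12 were Snord118, Snora19, Snora20, Snora35, Snord37, Snord85, Snord88c, Snord91a, Snord92, Snord98, Snord123 and Scarna8. Of the 14, Snord90 exceeded it in 3 of 29 arrays, Snora41 in 4, Snora78 in 5, Snord93 in 8, Snord14a in 10 and Snora2b in 11. Probe background limits their low values too. Signals of different genes depend on their probes, so each gene is compared only with itself. A test was run where a gene exceeded the array's median in at least 2 arrays, which kept 66 members and 22063 genes in all. Snora35, which lies in the serotonin receptor gene Htr2c, stayed below that limit, at 2.92 to 3.49. Differences are given ± SE from 1 limma model over all arrays, with p adjusted by Benjamini-Hochberg over the 22063 genes, and "called" means an adjusted p under 0.05. Of the 66 members, 61 were called in at least 1 of the 6 stage steps (85% of all genes), 39 in at least 1 of the 7 comparisons of genotype (46.2%), and 9 in at least 1 of the 6 comparisons of LY3201 (2.33%).

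**Figure D1:**
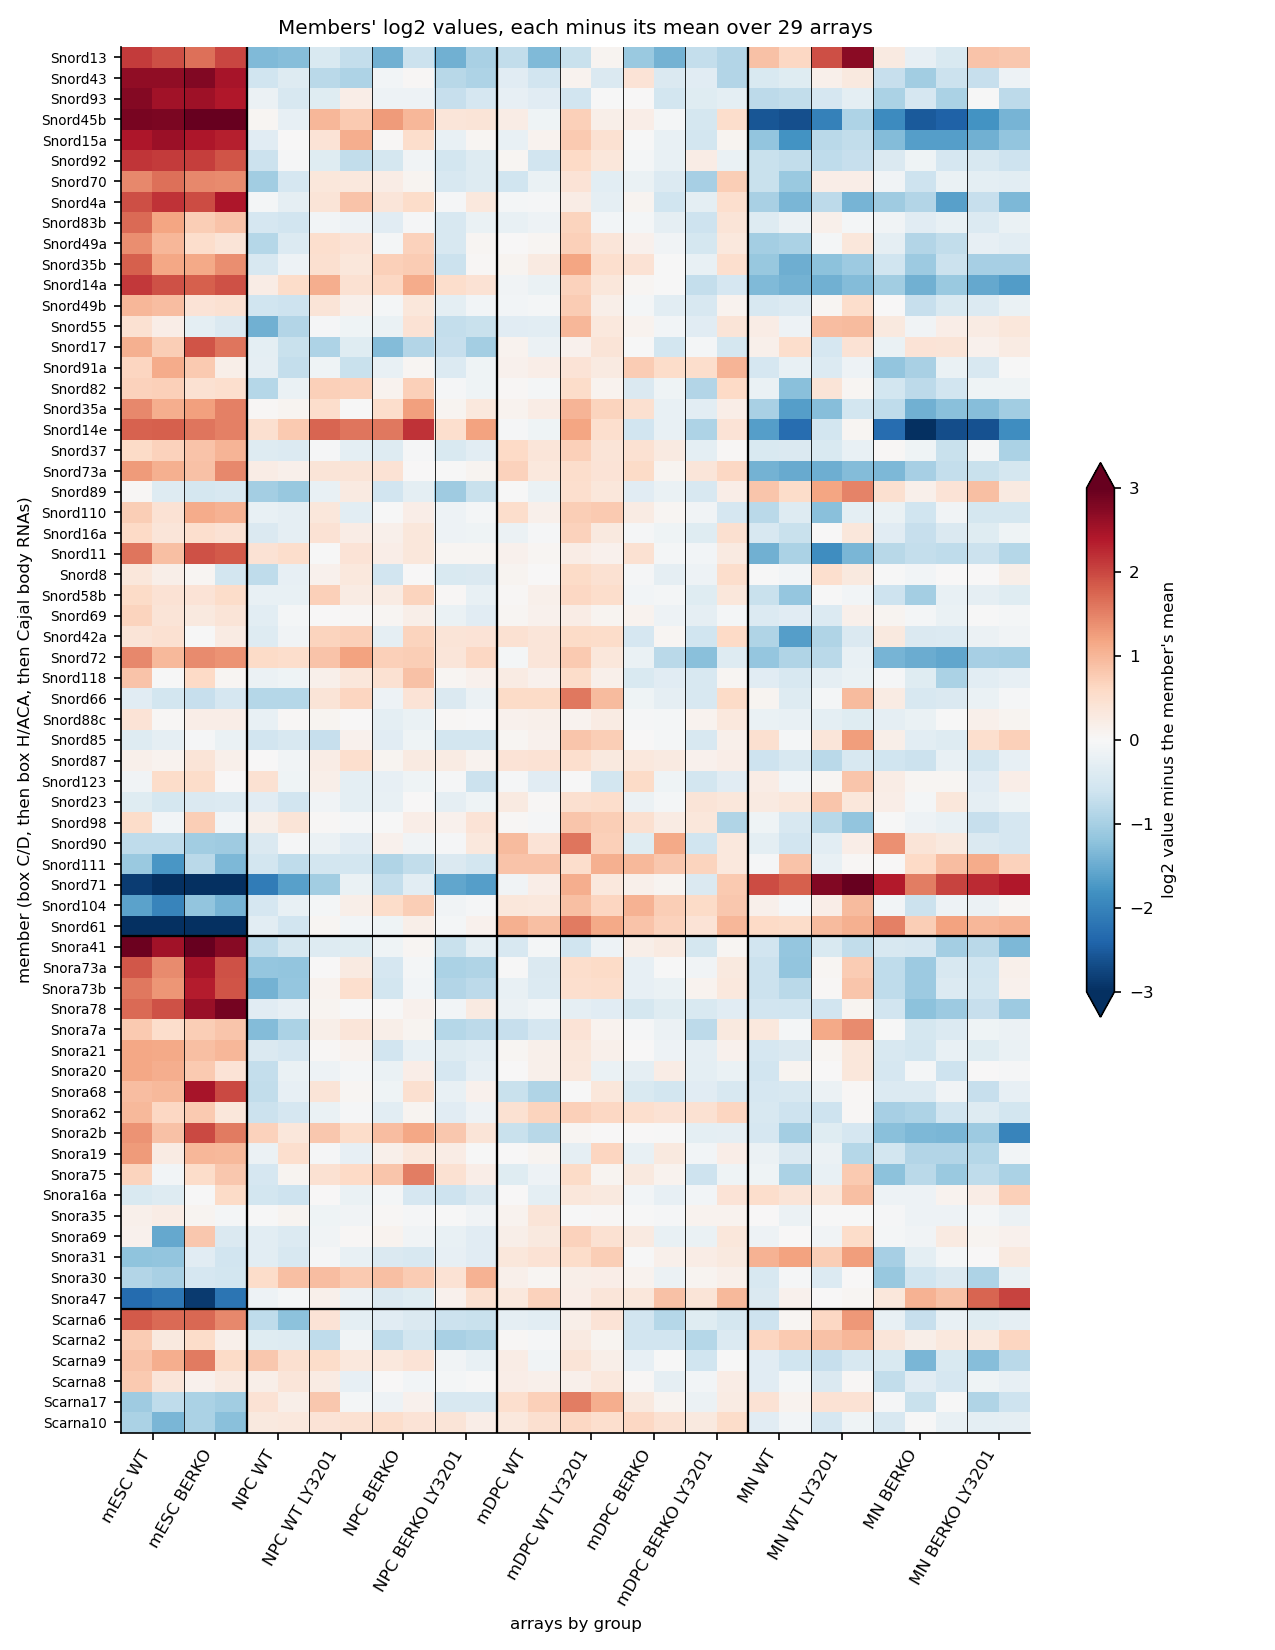
Log2 value of each of the 67 members (1 line each) in each of the 29 arrays (columns, by group), minus the member's own mean over all arrays, with the colour scale limited at 3 in each direction. Lines run from the largest fall to the largest rise between WT mESC and NPC within each class. The mESC columns differ most from the rest, with Snord45b and Snora41 high and Snord61 and Snord71 low there.

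The first step, from mESC to NPC, brought the largest changes. In WT, 51 of 66 members were called, 42 of them lower and 9 higher in NPC. Over all tested genes 62.9% were called, 35% lower and 27.9% higher, so that falls were more frequent among members than among genes at large. The median difference was -0.87 for the members and -0.04 for all genes. Falls of at least 2-fold were called for 30 members and rises of that size for 7, against 18.8% and 13.9% of all genes. By class, 30 of 43 Snord genes fell and 4 rose, 10 of 17 tested Snora genes fell and 3 rose, and of the 6 Scarna genes 2 fell and 2 rose. With any 1 of the 4 arrays left out, between 45 and 50 members were called.

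Among the falls, Snora41, which lies in the elongation factor gene Eef1b2, went from 8.9 and 8.47 in the WT mESC arrays to 5.19 and 5.42 in the WT NPC arrays (-3.39 ± 0.27, adjusted p = 1.07e-09). In BERKO it went from 9.28 and 8.68 to 5.82 and 6.01 (-3.06 ± 0.27, adjusted p = 5.06e-09). Snord13 (U13), which guides acetylation of 18S ribosomal RNA and has a transcription unit of its own, read 10.87 and 10.71 in WT mESC and 7.45 and 7.49 in WT NPC (-3.32 ± 0.30, adjusted p = 8.44e-09). The corresponding BERKO values were 10.44 and 10.78, then 7.33 and 8.13. For both genes every mESC array lay above every NPC array.

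Snord43, in the ribosomal protein gene Rpl3, fell by 3.15 ± 0.24 in WT, from 10.13 and 10.14 to 6.87 and 7.09 (adjusted p = 4.97e-10). Snord93 fell by 2.96 ± 0.24 (9.93 and 9.7 to 7.01 and 6.7). Snord45b, in the Rab prenylation enzyme gene Rabggtb, fell by 2.93 ± 0.33, from 13.66 and 13.63 to 10.87 and 10.56 (adjusted p = 1.69e-07). These falls were also called in BERKO, at -2.64, -2.62 and -2.26.

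Snora73a and Snora73b, the 2 forms of U17, which act in processing of the 18S precursor, fell together. Snora73a read 14.64 and 14.19 in WT mESC and 11.62 and 11.6 in WT NPC (-2.81 ± 0.29, adjusted p = 4.04e-08), and Snora73b fell by 2.74. In BERKO the differences were -2.47 and -2.43. Of the U14 forms, Snord14a fell by 1.62 in WT and 0.98 in BERKO. Snord14e fell in WT (-1.15, adjusted p = 0.0148), while in BERKO it went from 13.01 and 12.92 to 12.99 and 13.59 and was not called. Snord118 (U8), which is needed for maturation of the large-subunit RNAs, lay below the negative controls' 95th percentile in every array, at 6.43 and 5.56 in WT mESC and 5.4 and 5.44 in WT NPC, and was not called in this step in either genotype.

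A smaller number rose. Snord61, in the RNA-binding protein gene Rbmx, went from 11.93 and 11.83 in WT mESC to 15.16 and 14.91 in WT NPC (3.16 ± 0.20, adjusted p = 2.47e-11) and from 11.33 and 11.36 to 15.35 and 15.65 in BERKO (4.16 ± 0.20, adjusted p = 3.31e-13). Snora47, in the zinc finger gene Zbed3, rose by 2.13 ± 0.26 in both genotypes, from 11.12 and 11.26 to 13.26 and 13.37 in WT. Snord104 rose by 1.44 in WT and 1.93 in BERKO, Snora30 by 1.65 and 1.36, Scarna10 by 1.45 and 1.58, Scarna17 by 1.21 and 0.97, and Snord71 by 1.18 and 2.99. Scarna10 (U85) guides modification of U5 spliceosomal RNA.

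Among Cajal body RNAs the directions thus differed. Scarna6 fell by 2.76 in WT (12.74 and 12.62 to 10.15 and 9.69, adjusted p = 6.61e-09) and by 1.98 in BERKO. Scarna2, which guides modification of U2, fell by 0.91 in WT and fell by 1.01 in BERKO. Scarna9 went from 10.61 and 10.84 to 10.55 and 10.22 in WT, with no call, and was called lower in BERKO (-0.71, adjusted p = 0.0489). Scarna8 was called in neither.

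In BERKO, 39 of 66 members were called in this step, 31 lower and 8 higher, against 63.5% of all genes (35.9% lower, 27.7% higher). The members' median was -0.51, that of all genes -0.10. Of the 42 members that fell in WT, 29 (69%) fell in BERKO, which is 93.5% of the 31 that fell there. Of the risers, 7 were common to both genotypes, 77.8% of those in WT and 87.5% of those in BERKO. No member was called in opposite directions.

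**Figure D2:**
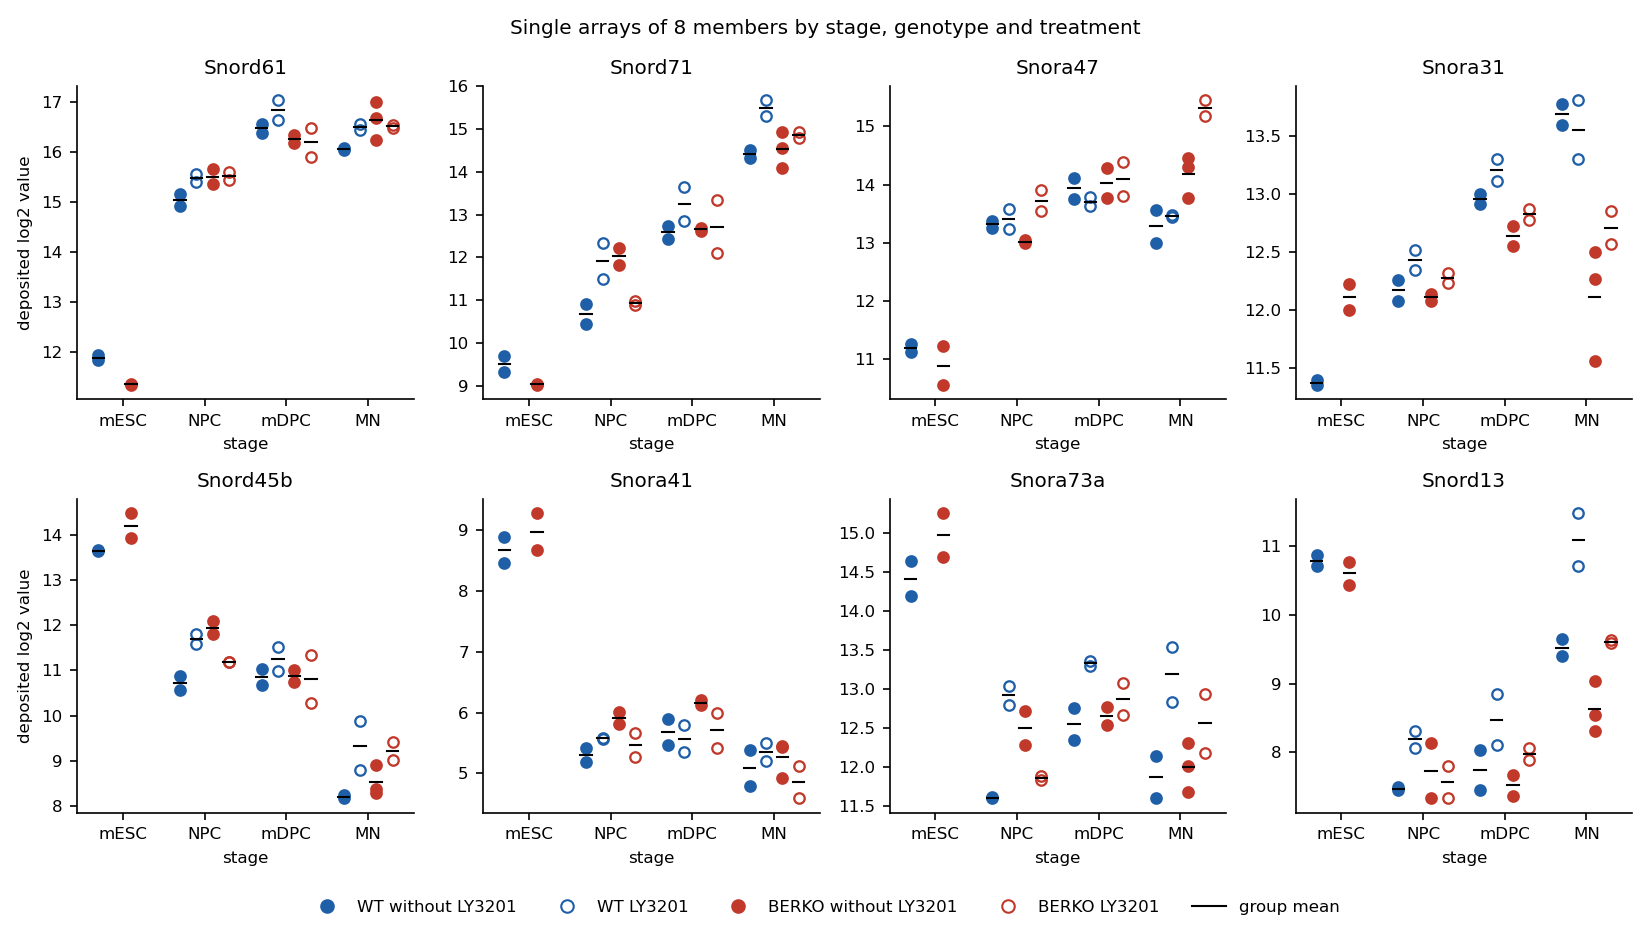
Deposited log2 values of single arrays (points) and group means (bars) for 8 members by stage, with filled points without and open points with LY3201. Snord61 and Snord71 lie lowest in mESC, Snord45b, Snora41 and Snora73a lie highest there, and Snord13 is low in NPC and mDPC and higher again in MN.

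A direct test of whether this step differed by genotype called 8 of 66 members, 7 with the higher value in BERKO and 1 lower, against 9.6% of all genes (6.35% higher, 3.25% lower). Snord55 gave the largest difference (1.97 ± 0.35, adjusted p = 0.000992). It fell in WT from 15.96 and 15.7 to 14.06 and 14.62, while the BERKO arrays read 15.2 and 15.06 in mESC and 15.29 and 15.92 in NPC. Snord49a differed by 1.68 ± 0.39 and Snord71 by 1.82 ± 0.49. Snord17, in the sorting nexin gene Snx5, was the member with the lower step in BERKO (-1.45 ± 0.42, adjusted p = 0.0323). Snord55 stayed called without any 1 of the 8 arrays, but the count of 8 fell to between 2 and 6, and only without WT mESC array 2 did it stay within 1.5 times (6). It was 3 without WT mESC array 1, 2 without BERKO mESC array 1, 4 without BERKO mESC array 2, 2 and 5 without WT NPC arrays 1 and 2, and 5 and 2 without BERKO NPC arrays 1 and 2. Averaging the arrays with a shared title number left 2 calls, and quantile normalization 5, of which 3 were higher.

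The genes whose products build snoRNA particles moved in the same direction as most members in this step. All 11 tested genes for box C/D particle proteins and their assembly were called lower in NPC in both genotypes, as were all 6 for box H/ACA particles and all 7 for Cajal body and nucleolar carrier proteins, against the 35% of all genes given above for WT. Among them were fibrillarin (Fbl, -2.94 ± 0.10 in WT and -2.62 ± 0.10 in BERKO), Nop58 (-4.04 and -3.91), dyskerin (Dkc1, -4.56 and -4.21), Nhp2 (-3.15 and -2.93), and nucleolin (Ncl, -2.49 and -2.19). Of 12 tested genes of ribosomal RNA synthesis and processing, 11 fell in both, such as the RNA polymerase I subunit gene Polr1b (-4.50 and -4.48). Myc was the exception in each, with a difference of -0.18 that was not called in WT and a rise of 1.55 in BERKO. The noncoding hosts with a cluster of their own fell in 5 of 6 cases in both genotypes, with Snhg5 at -2.87 and -3.19 and Snhg18 not called. Of nonsense-mediated decay genes 4 of 5 fell in each, and Smg6 rose by 0.23 in WT. Decay of this kind limits the spliced transcripts of many noncoding snoRNA hosts.

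Other stable small RNAs did not all follow. Of 12 tested, 5 fell and 3 rose in WT, and 3 fell and 5 rose in BERKO. The 2 genes for U3, a box C/D RNA of the nucleolus named outside the Snord series, fell (Rnu3a by 1.55 in WT and 1.27 in BERKO, Rnu3b1 by 0.95 and 0.56), as did the box H/ACA telomerase RNA Terc (-1.47 and -1.53). The Y RNAs Rny1 and Rny3 rose by 1.98 and 1.53 in WT and by 2.86 and 1.32 in BERKO. The mean of 69 entries of 5S ribosomal RNA rose from 13.27 to 14.18 in WT and from 13.92 to 14.65 in BERKO, and the mean of 14 Rnu genes went from 13.6 to 13.54 and from 13.77 to 13.9. The Rnu genes were taken by symbol and include the 2 U3 genes, here and below, so that this class holds box C/D RNAs too. Unlike the 5S mean, the members' mean fell in this step, from 10.79 to 9.9 and from 10.83 to 10.31.

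Hosts and members were compared where the host had a cluster of its own, which was the case for 29 tested pairs with 27 hosts. In WT from mESC to NPC, 14 pairs were called in the same direction, 3 in opposite directions, 3 for the member only and 7 for the host only, and 2 for neither. The correlation of member and host differences across the 29 pairs was 0.63, and 0.71 in BERKO, where 15 pairs moved alike and none in opposite directions. These pairs are not independent, since 2 hosts hold 2 members each and all share the same arrays. Snord61 and Rbmx had the largest rises of member and host, and the correlation without this pair was not computed. Pairs whose member lay below the negative controls' 95th percentile in every array, such as Scarna8 and Snord98, were kept. Snord61 and Rbmx rose together, the host from 7.42 and 7.62 to 11.45 and 11.44 (3.93 ± 0.11). Snora41 and Eef1b2 fell together (-3.39 and -1.94), as did Snord92 and Wdr43 (-2.46 and -3.91). Snord92 lay below the negative controls' 95th percentile in every array. Within Nop58, which fell by 4.04, Snord70 fell by 2.31 and Snord11 by 0.78.

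Some pairs parted. Scarna10 rose by 1.45 in WT while its host Ncapd2, a condensin subunit, fell by 1.23 ± 0.10, from 12.33 and 12.4 to 11.09 and 11.2. Snord111 rose by 0.77 and its host Sf3b3, a splicing factor, fell by 2.20. Snora31 rose by 0.80 and its host Tpt1 fell by 0.59, but Tpt1 read only 5.39 to 6.47. It thus lay below the negative controls' 95th percentile in every array, where probe background limits the values. In Snora30 and Srcap only the member changed (1.65, against 0.08 ± 0.10 for the host). Snord14e, whose cluster is named as unmapped, fell. Its host by symbol, Hspa8, a heat shock protein gene whose signal was between 19.64 and 19.92 in every array, differed by -0.04 and was not called.

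**Figure D3:**
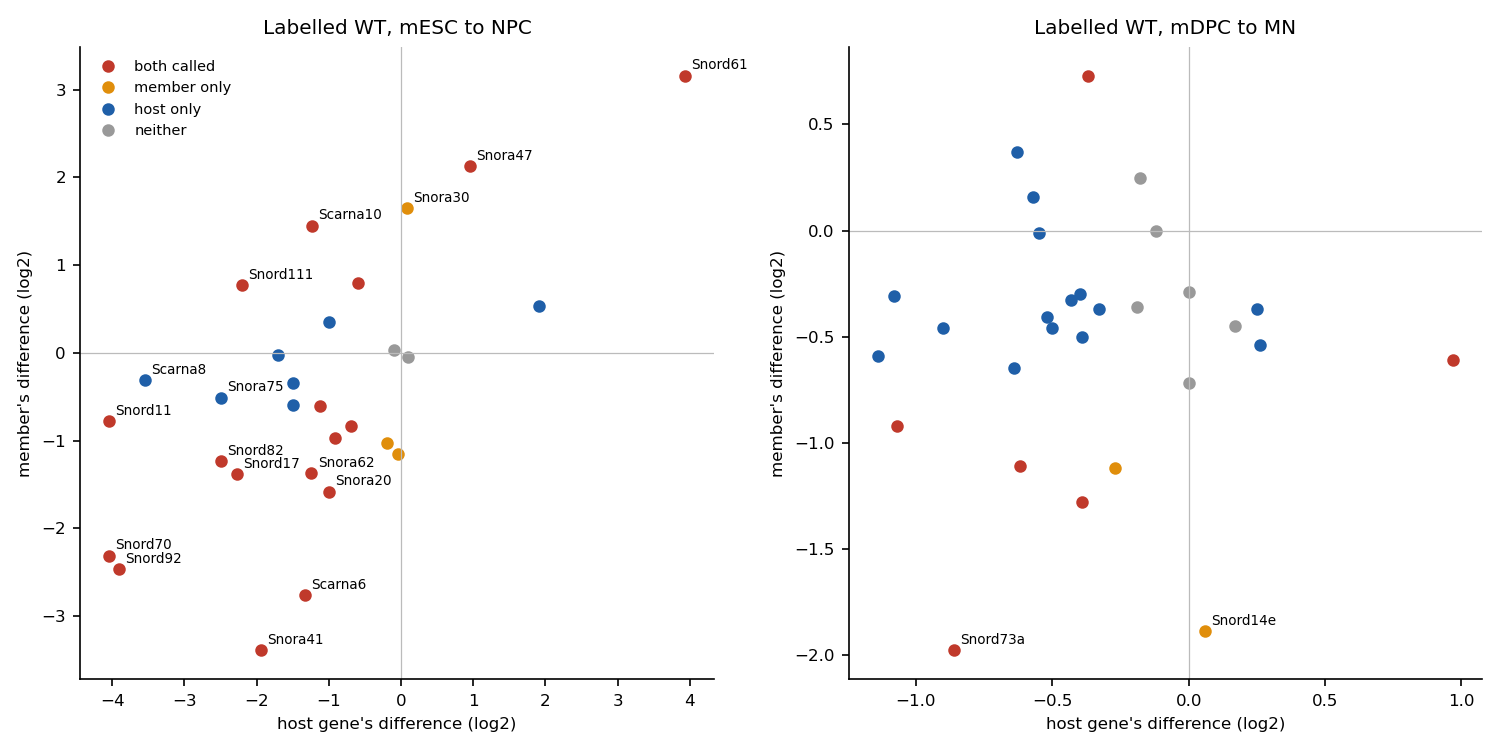
Difference of a member (vertical axis, log2) against that of its host gene (horizontal axis, log2) for 29 pairs in WT, from mESC to NPC at left and from mDPC to MN at right, coloured by which of the pair was called. At left most pairs lie in the lower left corner, with Snord61 at the upper right and Scarna10 and Snord111 at the upper left. At right no such line is seen (correlation 0.03).

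From NPC to mDPC, fewer members changed than in the first step. In WT, 16 members rose and 2 fell, 18 of 66 in all, against 30.4% of all genes (14.6% higher, 15.8% lower). The share called was thus near the background, while rises were more frequent than among all genes. The members' median was 0.38 (all genes 0.02). Without WT mDPC array 1 the count was 10, and between 10 and 14 without any 1 array. A fit to the compared groups alone gave 35 calls, 30 of them higher.

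Snord71 rose by 1.91 ± 0.35 in this step, from 10.45 and 10.92 in WT NPC to 12.44 and 12.74 in WT mDPC (adjusted p = 0.000284). Snord111 rose by 1.51 ± 0.30 (12.58 and 12.35 to 13.97 and 13.99), and Snord61 by a further 1.43 ± 0.20 to 16.56 and 16.38. Snord66, in the initiation factor gene Eif4g1, rose by 1.43, Snora62, in the ribosomal protein gene Rpsa, by 1.14 and Snord89 by 0.98. The falls were those of Snora2b (-1.27 ± 0.24, from 7.78 and 7.43 to 6.42 and 6.26) and Snord14a. Of these, the call of Snord14a (-0.54, adjusted p = 0.0394) was lost without WT NPC array 2 (adjusted p = 0.296), WT mDPC array 1 (0.0933) or WT mDPC array 2 (0.163).

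In BERKO, 5 members rose and 9 fell between NPC and mDPC, 21.2% of those tested and below the 35.4% of all genes (16.5% higher, 18.9% lower). The median was -0.01. Under quantile normalization 10 rose and 9 fell, so that no balance of directions can be read from it. Without BERKO mDPC array 2, 8 were called. Snord111 rose by 1.71 ± 0.30 and Snora47 by 1.00, the latter lost without BERKO mDPC array 2 (adjusted p = 0.0879). Snord14e fell by 2.27 ± 0.39, from 12.99 and 13.59 to 10.84 and 11.19, and Snord72, in the ribosomal protein gene Rpl37, by 1.23 ± 0.26. Snora62, Snord111 and Snord61 rose in both genotypes and Snora2b and Snord14a fell in both. In BERKO the call of Snord61 was lost without NPC array 1 (adjusted p = 0.0677), and that of Snora62 without NPC array 1 (0.254) or either mDPC array (0.112 and 0.0728). Tested directly, the step differed by genotype for 2 members, Snord66 (-1.76 ± 0.47) and Snord118 (-1.40 ± 0.39), both lower in BERKO, against 8.68% of all genes (3.68% higher, 4.99% lower). Snord118 was below the negative controls' 95th percentile in every array, and its other cluster gave -0.33 (adjusted p = 0.756). Without BERKO NPC array 1 the 2 calls were made, and without any other 1 of the 8 arrays (both WT NPC, both WT mDPC, BERKO NPC array 2 and both BERKO mDPC arrays) there were 0.

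The last step, from mDPC to MN, again lowered many members. In WT 22 fell and 7 rose, 43.9% of those tested against 42% of all genes (24% lower, 18% higher). In BERKO 28 fell and 4 rose, 48.5% against 50.9% (30.8% lower, 20.1% higher). The share called was near the background in both, with falls above it. Medians were -0.45 in WT and -0.42 in BERKO, beside -0.10 and -0.14 for all genes. The mean of the 894 other snoRNA genes differed by 0.74 in WT and -0.04 in BERKO. Without BERKO mDPC array 1 the BERKO count was 20 rather than 32. Of the 22 WT falls, 17 were shared (77.3% of those in WT, 60.7% of those in BERKO), and all 4 BERKO rises (Scarna2, Snord13, Snord71 and Snord89) were among the 7 in WT.

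Box C/D members led the falls. Snord45b fell by 2.64 ± 0.33 in WT, from 11.02 and 10.67 to 8.24 and 8.17 (adjusted p = 2.03e-06), and fell by 2.34 ± 0.30 in BERKO, where the 3 MN arrays read 8.91, 8.28 and 8.38. Over the whole series it thus went from 13.66 and 13.63 in WT mESC to 8.24 and 8.17 in WT MN. Snord73a, in the ribosomal protein gene Rps3a1, fell by 1.98 ± 0.21 and 1.35 ± 0.19. Snord14e fell by 1.89 ± 0.39 in WT (11.38 and 11.29 to 9.75 and 9.14) and fell by 2.31 ± 0.36 in BERKO. Snord35a and Snord35b both fell by 1.48 in WT, and by 1.28 and 0.99 in BERKO. Snord42a fell by 1.7 ± 0.35 in WT alone (17.44 and 17.34 to 16.07 and 15.33), whereas the BERKO arrays read 16.46 and 17.03 in mDPC and 17.27, 16.53 and 16.57 in MN.

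Snord71 and Snord13 rose. Snord71 gained 1.82 ± 0.35 in WT, to 14.5 and 14.33, and 1.87 ± 0.32 in BERKO, to 14.93, 14.08 and 14.56, and so rose at every step in WT, from 9.69 and 9.33 in mESC. Snord13 rose by 1.78 ± 0.30 in WT, from 8.04 and 7.45 to 9.65 and 9.4 (adjusted p = 8.31e-05), and by 1.11 ± 0.28 in BERKO, so that the MN values lay between those of mDPC and mESC. Scarna2 rose by 0.71 and 0.86. Snord89 (0.79 and 0.61) was called in both genotypes, but lost in WT without mDPC array 2 or MN array 1 (highest adjusted p = 0.0882) and in BERKO without either mDPC array or without MN array 1 or 3 (highest adjusted p = 0.129).

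Snora31, in Tpt1, was called in opposite directions. The WT arrays rose from 12.91 and 13 to 13.6 and 13.78 (0.73 ± 0.21, adjusted p = 0.0082), and the BERKO arrays fell from 12.55 and 12.72 to 11.56, 12.27 and 12.5 (-0.52, adjusted p = 0.0291). The WT call was lost without WT mDPC array 1 or WT MN array 2 (highest adjusted p = 0.0669). The difference of the steps, -1.26 ± 0.28 (adjusted p = 0.00521), stayed called without any 1 of the 9 arrays (highest adjusted p = 0.0278). Tpt1 itself fell in WT by 0.37. The direct test called 3 other members, Snora2b (-1.33), Snord104 (-0.90) and Snord42a (1.74), 4 in all against 12.5% of all genes (7.31% higher, 5.15% lower). That count was 2 without WT mDPC array 1, BERKO mDPC array 1, or either WT MN array, and quantile normalization gave 2 higher and 2 lower.

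From NPC to mDPC no pair was called in the same direction in WT and 5 in opposite directions (correlation -0.15 across the 29 pairs), and in BERKO 4 and 4 were (-0.10). Member and host changes had a correlation of 0.03 in WT and 0.01 in BERKO from mDPC to MN. In that step 4 WT pairs were called in the same direction, 2 in opposite directions, 2 for the member only and 15 for the host only. Proliferation markers, which are no snoRNA genes but moved with these stages, averaged 13.46 to 14.63 in NPC, 5.07 to 7.58 in mDPC and 10.03 to 11.38 in MN over the 3 of 4 that were measured, and their part in the members' changes was not tested.

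Between the genotypes, few members were called in mESC, with differences from -0.73 to 1.28. Without LY3201, 2 of 66 members were called there, both higher in BERKO, which is 3.03% against 4.21% of all genes (1.68% higher, 2.53% lower). Snora68 read 9.34 and 9.38 in WT and 10.89 and 10.39 in BERKO (1.28 ± 0.22, adjusted p = 0.00156). Snora78 read 8.66 and 8.85 in WT and 9.54 and 9.82 in BERKO (0.93 ± 0.20, adjusted p = 0.0116). The 2 genotypes did not overlap for either gene. The call of Snora78 was lost without WT array 1 (adjusted p = 0.115) or BERKO array 2 (0.0778), and that of Snora68 stayed without any 1 of the 4 arrays. A fit to the 4 arrays alone called 0 and one with the 2 BERKO arrays averaged called 1.

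In NPC without LY3201, 14 members were higher in BERKO and 0 lower, 21.2% against 15.7% of all genes (10.6% higher, 5.08% lower). The median difference was 0.39 for members and 0.03 for all genes. The 2 BERKO arrays differed from each other, the second being higher for 53 of 67 members with a median of 0.22. Snora75, in the nucleolin gene, read 8.05 and 8.63 in WT and 9.39 and 10.09 in BERKO (1.40 ± 0.34, adjusted p = 0.00666). Snord71 (1.35 ± 0.35), Snord55 (1.27 ± 0.25), Snora7a (1.27 ± 0.24), Snord14e (1.24 ± 0.39) and Snord45b (1.23 ± 0.33) came next, and for each of them both BERKO arrays lay above both WT arrays. Only Snord55 and Snora7a of these 6 stayed called without any 1 of the 4 arrays. The count became 3, 9 or 4 on dropping WT array 1, WT array 2 or BERKO array 2, and 6 under quantile normalization, each time with all calls higher.

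Other small RNAs moved alongside in these arrays: the mean of 5S entries was higher in BERKO by 0.47 and that of the Rnu genes by 0.36, beside 0.42 for the members, while protein-coding genes differed by 0.01 and microRNA genes by -0.10 on average. The mean of the 894 other snoRNA genes was higher by 0.24. Rmrp, Rpph1, Rny1 and Rnu3b1 were called higher among the 12 other stable RNAs. Of the box C/D particle genes 2 of 11 were called higher, of the ribosomal RNA list 4 of 12 and of the carrier genes 2 of 7, with Nolc1 at 0.52 and Ncl at 0.40. The part of a shift common to stable small RNAs in the members' result was not tested.

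**Figure D4:**
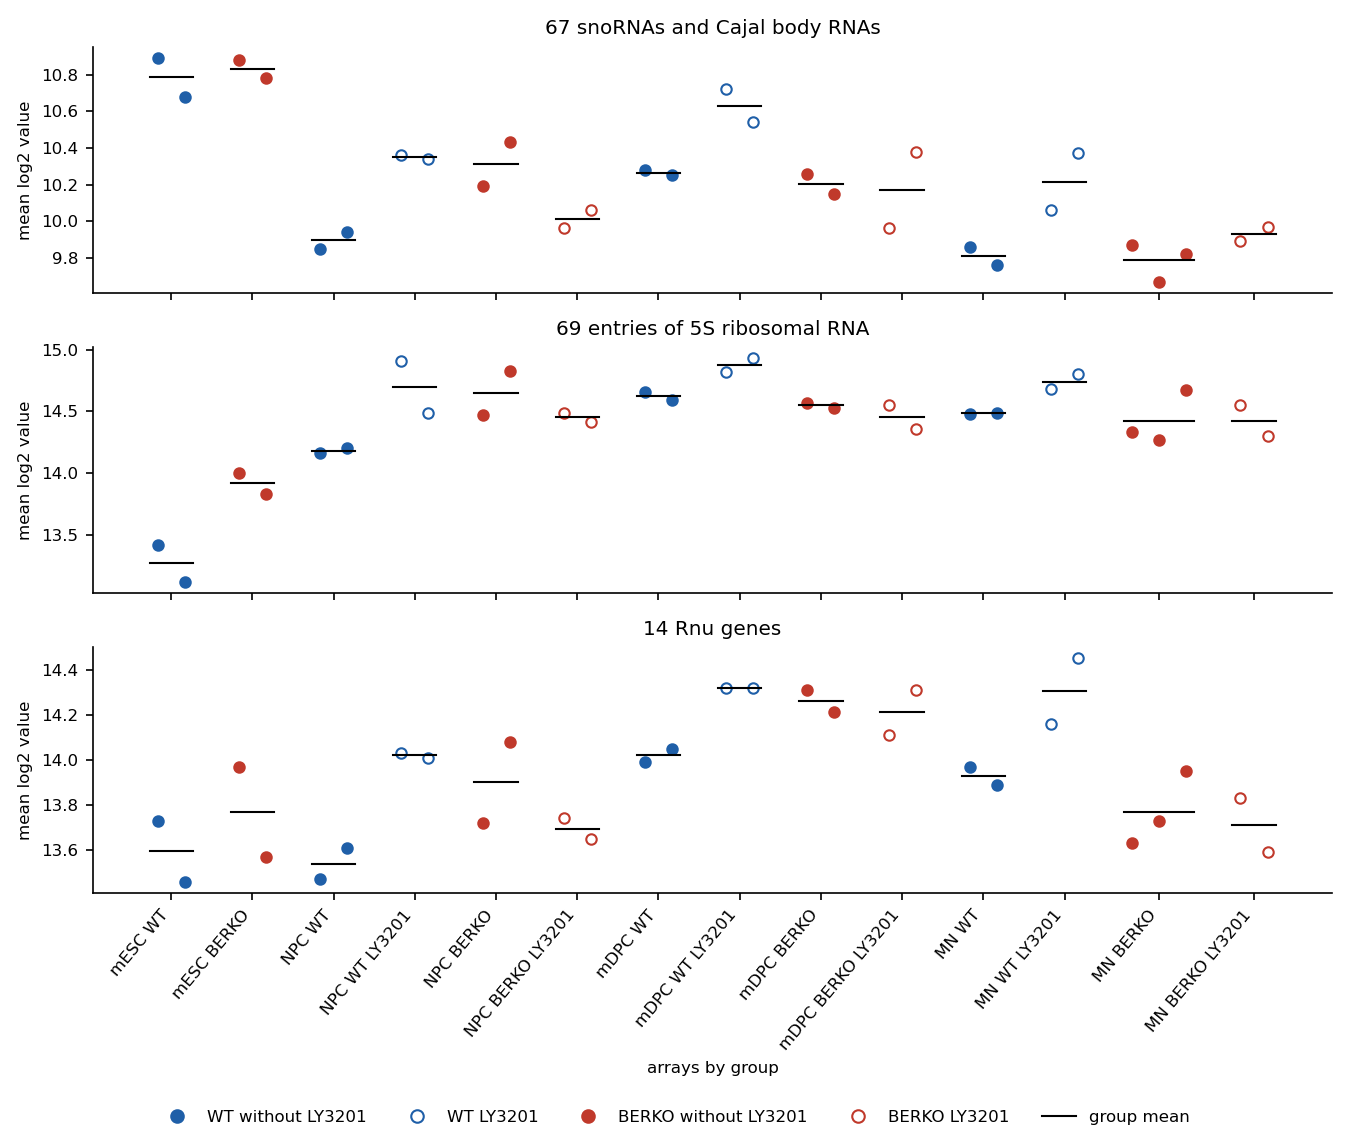
Mean log2 value per array (points) and per group (bars) of the 67 members, of 69 entries of 5S ribosomal RNA and of 14 Rnu genes, with the arrays ordered by group. The Rnu genes include those of U3, a box C/D RNA. The members' means lie between 9.67 and 10.89. From mESC to NPC the members fall while the 5S entries rise, and in WT the groups with LY3201 lie above those without in all 3 panels.

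In mDPC without LY3201, 1 member was called, Snora2b (0.76 ± 0.24, adjusted p = 0.0359), against 13.8% of all genes (8.51% higher, 5.32% lower). It read 6.42 and 6.26 in WT and 7.11 and 7.09 in BERKO, and its call was lost without any 1 of the 4 arrays (adjusted p between 0.0831 and 0.195). Without WT array 1 or 2 or BERKO array 1 no member was called, while a fit to the 4 arrays alone called 5 members, 2 higher and 3 lower. In MN without LY3201, 4 members were higher and 2 lower in BERKO, 9.09% against 20.8% (13.5% higher, 7.31% lower). Both shares were below the background.

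Snora31 was the strongest of these. Its 2 WT MN arrays read 13.6 and 13.78 and its 3 BERKO arrays 11.56, 12.27 and 12.5 (-1.58 ± 0.19, adjusted p = 4.65e-06), a call kept without any 1 of the 5 arrays. Snord13 was lower in BERKO (-0.89 ± 0.28, 9.65 and 9.4 against 9.04, 8.54 and 8.31). Higher were Snord90 (1.11, above the negative controls' 95th percentile in only 3 of 29 arrays), Snord42a (1.09), Snora47 (0.89) and Snord61 (0.58). All 5 of these calls depended on single arrays, with highest adjusted p of 0.172, 0.228, 0.259, 0.186 and 0.14 when 1 of the 5 arrays was left out. The count of 6 was 2 without WT array 1 and 3 without WT array 2.

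Among arrays with LY3201 the members called were mostly lower in BERKO. In NPC 6 members were lower and 0 higher in BERKO, 9.09% against 10.4% of all genes (4.56% higher, 5.81% lower). In mDPC 11 were lower and 0 higher, 16.7% against 15.3% (8.1% lower, 7.23% higher). In MN 13 were lower and 5 higher, 27.3% against 19.6% (10.6% lower, 9.01% higher). Medians were -0.27, -0.46 and -0.34, beside -0.02, -0.02 and -0.04 for all genes. The 5S entries were lower as well, by 0.25, 0.42 and 0.32 on average, and the Rnu genes by 0.32, 0.11 and 0.59, and their part in the result was not tested. The mean of the 894 other snoRNA genes differed by -0.01, -0.04 and -0.48.

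Scarna17 was called lower in BERKO at all 3 stages with LY3201. It read 12.11 and 11.25 in WT and 10.82 and 10.83 in BERKO in NPC (-0.85 ± 0.25, adjusted p = 0.0335). In mDPC the values were 12.83 and 12.39 against 11.13 and 11.54 (-1.27 ± 0.25, adjusted p = 0.00113), and in MN 11.73 and 11.74 against 10.39 and 10.67 (-1.21 ± 0.25, adjusted p = 0.0018). In no stage did the arrays of the genotypes overlap. The calls in mDPC and MN stayed without any 1 array of the 4, and that in NPC did not.

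In NPC, Snora73b (-1.14), Snora7a (-1.10), Snora73a (-1.06), Snord89 (-0.88) and Snord15a (-0.84) were the other calls. The 6 calls became 2 without WT LY3201 array 2, 0 without BERKO LY3201 array 1 and 3 without BERKO LY3201 array 2, and 1 with the WT arrays of a shared title number averaged. In mDPC the members with the largest differences were Snord72 (-1.37 ± 0.26), Snord90 (-1.30), Scarna17, Snord66 (-1.23), Snord14a (-1.13 ± 0.19) and Snord98 (-1.07). Of these, Snord72, Scarna17 and Snord14a stayed called without any 1 of the 4 arrays. Snord98 lay below the negative controls' 95th percentile in every array, and Snord90 exceeded it in only 3 of 29 and Snord14a in 10. In mDPC with LY3201 the BERKO arrays stood apart from each other, the second being higher for 57 of 67 members with a median of 0.41. Without BERKO LY3201 array 2 there were 24 calls, without array 1 there were 5, and without WT LY3201 array 1 there were 4, none of them higher.

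In MN with LY3201, Snora47 was higher in BERKO by 1.85 ± 0.26 (13.44 and 13.48 against 15.18 and 15.45, adjusted p = 4.17e-05). Snord111 (1.00), Snord11 (0.86), Snord73a (0.79) and Snord88c (0.45) were the other rises, each lost without single arrays (highest adjusted p = 0.163, 0.106, 0.0889 and 0.0634). Of these, Snord88c read only 3.14 to 3.91 over all arrays, where probe background limits the values. Snord14e was lower by 1.99 ± 0.39 (10.86 and 11.48 against 8.81 and 9.56), Snord13 by 1.48 ± 0.30 (10.71 and 11.48 against 9.64 and 9.59), Snora7a by 1.44 ± 0.24, and Scarna6 by 1.28 ± 0.25 (11.53 and 12.21 against 10.55 and 10.64). Those 4 calls, and that of Snora47, stayed without any 1 array. The count was 10 without WT LY3201 array 2 and 11 without BERKO LY3201 array 1.

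Averaged over all 7 comparisons of genotype, 16 members were called, 14 lower and 2 higher in BERKO, 24.2% against 29.8% of all genes (12.8% lower, 17% higher). The Cajal body RNAs made up 5 of the 14: Scarna17 (-0.67 ± 0.09, adjusted p = 1.38e-05), Scarna2 (-0.46 ± 0.07), Scarna6 (-0.40 ± 0.09), Scarna9 (-0.33) and Scarna8 (-0.21). Scarna8 lay below the negative controls' 95th percentile in every array, and Scarna10 was not called. Scarna2 read 13.19 and 13.16 in WT NPC and 12.79 and 13 in BERKO NPC, 13.59 and 13.51 against 12.98 and 12.99 in mDPC, and 14.19 and 14.34 against 13.91, 13.74 and 13.88 in MN. Snord14e (-0.56), Snord13 (-0.52), Snord72 (-0.45) and Snora31 (-0.37) were lower too, and Snora47 (0.42 ± 0.10) and Snord11 (0.23) higher, the last with a call lost without any of 19 single arrays (highest adjusted p = 0.0827). Between 11 and 18 members were called with any 1 of the 29 arrays left out.

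**Figure D5:**
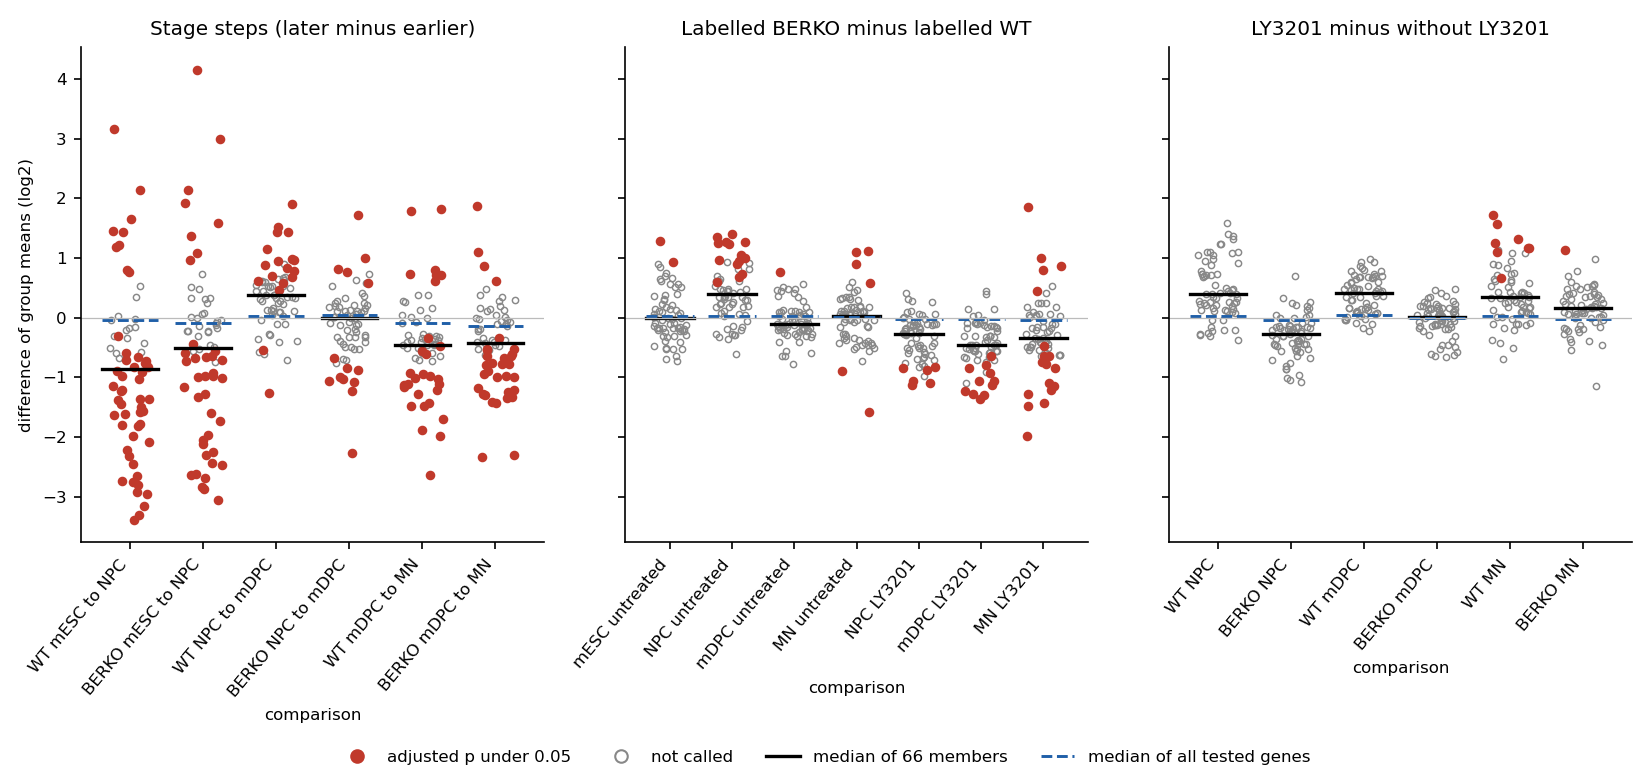
Difference of group means (log2) for each of the 66 tested members (points, filled where called) in the stage steps, the comparisons of genotype and those of LY3201, with the median of the members (solid bar) and of all tested genes (dashed bar); the jitter along the horizontal axis has no meaning. The members' median lies below 0 in both mESC to NPC steps and above 0 for LY3201 at all 3 WT stages, where calls appear only in MN.

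LY3201 was compared with untreated cells of the same stage and genotype, arrays that also serve in the comparisons of genotype above. In WT NPC no member was called, against 0.00453% of all genes, although 29 members had an unadjusted p under 0.05, as did 9.99% of all genes. The median was 0.40 (all genes 0.03), and 55 of 66 members lay above 0 (83.3%, against 57.5% of all genes). In WT mDPC no member was called either (0.0635% of all genes, 0.0363% higher and 0.0272% lower), with 23 at an unadjusted p under 0.05 (12.7% of all genes). The median was 0.41, and 58 of 66 lay above 0 (87.9%, against 59.5% of all genes). The trended robust prior likewise gave 0 in both stages. A filter at the 95th percentile of the negative controls gave 2 calls in WT NPC, both higher.

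For single members the WT values were as follows. Snora73b read 11.88 and 12.13 in NPC without and 13.4 and 13.8 with LY3201, 13.06 and 12.89 against 13.79 and 13.81 in mDPC, and 12.64 and 12.48 against 13.33 and 14.12 in MN. Treated arrays lay above untreated ones at each stage. Snord71 read 10.45 and 10.92 against 11.5 and 12.34 in NPC, 12.44 and 12.74 against 13.64 and 12.85 in mDPC, and 14.5 and 14.33 against 15.31 and 15.67 in MN. None of the differences in NPC and mDPC passed the test.

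In WT MN, 8 members were higher with LY3201 and 0 lower, 12.1% against 1.83% of all genes (1.55% higher, 0.272% lower). Snord14e rose by 1.73 ± 0.39, from 9.75 and 9.14 to 10.86 and 11.48 (adjusted p = 0.0293). Snord13 rose by 1.57 ± 0.30, from 9.65 and 9.4 to 10.71 and 11.48 (adjusted p = 0.0147). Snora73a rose by 1.32, Scarna6 by 1.25, Snora7a and Snora73b by 1.16 each, Snord49a by 1.11 and Snora21, in the ribosomal protein gene Rpl23, by 0.66. The treated arrays differed among themselves, the second being higher for 54 of 67 members with a median of 0.31. No call was left without that second treated array, 1 was left without WT array 2 and 5 without WT array 1, and without the first treated array there were 10. A fit to the 4 arrays alone gave 0, and quantile normalization 4, all higher.

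The 5S entries were higher with LY3201 in WT by 0.52 in NPC, 0.25 in mDPC and 0.25 in MN on average, and the Rnu genes by 0.48, 0.30 and 0.37, beside 0.45, 0.37 and 0.41 for the members. Protein-coding genes differed by 0.01 at each stage. The mean of the 894 other snoRNA genes, which is near probe background, differed by 0.13, 0.04 and -0.05. The part of a shift common to the members, 5S entries and Rnu genes was not tested. Of the ribosomal RNA list 3 of 12 genes were called higher in WT MN, with Heatr1 at 0.51, and of the carrier list 1 of 7, Nolc1 at 0.45. None of the particle protein genes was called.

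In BERKO, LY3201 gave no call in NPC (0% of all genes) or mDPC (0.113% of all genes), again also with the trended robust prior. An unadjusted p under 0.05 was found for 15 members in NPC (8.35% of all genes) and 5 in mDPC (8.42%). The median was -0.28 in NPC, where 11 of 66 members lay above 0 (41.1% of all genes), and 0.01 in mDPC. In MN the median was 0.17 (all genes -0.03), and 47 of 66 members lay above 0 (71.2%, against 41.8% of all genes). There 1 member was called against 0.344% of all genes (0.0453% higher, 0.299% lower): Snora47 rose by 1.14 ± 0.24, from 13.77, 14.46 and 14.3 to 15.18 and 15.45 (adjusted p = 0.047). That call was lost without any of BERKO MN arrays 1 and 3 or either treated array (highest adjusted p = 0.362), kept without array 2, and not made without a filter or in a fit to the 5 arrays alone.

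The direct test of whether the LY3201 effect differed between genotypes called 7 members in NPC, all lower in BERKO, 10.6% against 0.499% of all genes. Nearly all calls among all genes were lower too (0.494% lower, 0.00453% higher), so that this direction was not particular to the members. Snora7a rose in WT from 7.64 and 7.99 to 9.12 and 9.32, and in BERKO the untreated arrays read 9.13 and 9.04 and the treated ones 8.09 and 8.16 (difference of effects -2.36 ± 0.35, adjusted p = 0.0196). Snord71 (-2.32 ± 0.49), Snora73b (-2.11 ± 0.37), Snora73a (-1.95 ± 0.41), Snord55 (-1.88 ± 0.35), Snord35b (-1.77 ± 0.39) and Snord89 (-1.53 ± 0.33) were the others. For all 7 members both treated arrays lay above both untreated ones in WT and below them in BERKO. The 5S entries moved by 0.52 in WT and -0.20 in BERKO, and the Rnu genes by 0.48 and -0.21. The mean of the other snoRNA genes moved by 0.13 and -0.11. Snora7a, Snord71, Snord55 and Snord35b were also called for the genotype difference of mESC to NPC, which uses the same untreated NPC arrays. The results of these 2 tests are therefore not independent.

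These calls rested on single arrays. None was left without WT array 1, WT LY3201 array 1, BERKO array 2 or either BERKO LY3201 array, 3 were left without WT array 2, 4 without WT LY3201 array 2, and 8 were made without BERKO array 1. Quantile normalization gave 0 and so did averaging the WT LY3201 arrays, while no filter gave 3 and the filter on negative controls 15. In mDPC and MN the difference was called for no member (0% and 0.63% of all genes). Medians were -0.40 and -0.35 there, and without the first treated WT MN array 1 member was called in MN.

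Averaged over both genotypes and 3 stages, LY3201 gave 2 calls, both higher, 3.03% against 0.0906% of all genes (0.0544% higher, 0.0363% lower). Snord13 was higher by 0.72 ± 0.12 and Snora73b by 0.67 ± 0.11 (adjusted p = 0.0338 for both). For Snord13 the treated mean was the higher in 5 of the 6 comparisons and in NPC of BERKO it was the lower, at 7.34 and 7.8 against 7.33 and 8.13. The count lay between 0 and 8 with 1 of the 25 arrays left out, and 15 of those 25 changed it by more than 1.5 times. It was 0 without WT NPC array 1, BERKO NPC array 1, BERKO NPC LY3201 array 2, WT mDPC array 2, WT mDPC LY3201 array 2, BERKO mDPC array 2, BERKO mDPC LY3201 array 2 or BERKO MN LY3201 array 2. It was 1 without WT NPC array 2, WT NPC LY3201 array 1, WT mDPC LY3201 array 1 or BERKO MN array 3, 4 without BERKO NPC array 2, 5 without WT MN LY3201 array 1, and 8 without BERKO mDPC LY3201 array 1.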

How the data were processed

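Total RNA of 29 samples was measured on 1 array each. The authors deposited log2 values after signal space transformation and RMA in Affymetrix Expression Console 1.4, per the labels and the submitters' processing notes, which also name Transcriptome Analysis Console. RMA forces arrays to a common distribution, so that a change in the total amount of RNA per cell cannot be seen. The build of the clusters is not given in the sources used here. Of 65956 clusters, 30604 had 1 gene symbol, 2146 several and 33206 none, and 827 symbols were updated. The number of arrays limits the precision.

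The members and gene lists were chosen with earlier results of these data known. Groups came from the labels. limma 3.58.1 in R 4.3.3 fitted a mean per group over all 29 arrays and 27 comparisons (15 residual degrees of freedom), with Benjamini-Hochberg adjustment over 22063 genes that exceeded the array's median in at least 2 arrays. The genes named in a comparison are the called members with the largest differences and no overlap of arrays, up to 6 in each direction, with the members that act in precursor cleavage, the highest of each class, and up to 4 called genes of each list. Others were chosen after their values were seen. A host is a RefSeq gene that contains the member, and its strand was not tested. The calculation was tested on simulated data. Alternatives were no filter, a filter at the 95th percentile of negative controls, quantile normalization, a trended robust prior, averaging arrays with a shared title number, another cluster of the gene, the compared groups alone, and leaving out each array.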

Additional observations from a re-analysis of the deposited data

Results flagged for a closer look

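These members differed between the genotypes in how they changed, by the direct test in limma with Benjamini-Hochberg adjustment. The tests of mESC to NPC, of NPC to mDPC and of LY3201 in NPC all use the same untreated NPC arrays. The WT arrays among them had the lowest means of the members in NPC (9.85 and 9.94). A member listed in several of these tests is therefore not a separate result in each. From mESC to NPC the change was higher in BERKO for Snord55 (1.97), Snord71 (1.82), Snord49a (1.68), Snord35b (1.26), Snord49b (1.26), Snora7a (1.14) and Snord61 (1.00), and lower for Snord17 (-1.45). On leaving out each of the 8 arrays in turn, Snord55 stayed called in 8 of 8, Snord49a in 5, Snord17 in 4, Snord71 and Snord49b in 3, Snord61 in 2, and Snora7a and Snord35b in 1.

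From NPC to mDPC the change was lower in BERKO for Snord66 (-1.76) and Snord118 (-1.40), each still called in 1 of 8. The other cluster of Snord118 gave -0.33 (adjusted p = 0.756). From mDPC to MN it was lower for Snora2b (-1.33, still called in 8 of 9), Snora31 (-1.26, in 9 of 9) and Snord104 (-0.90, in 1 of 9), and higher for Snord42a (1.74, in 6 of 9).

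The change with LY3201 in NPC was lower in BERKO for Snora7a (-2.36), Snord71 (-2.32), Snora73b (-2.11), Snora73a (-1.95), Snord55 (-1.88), Snord35b (-1.77) and Snord89 (-1.53). Snora7a, Snora73b and Snord55 stayed called in 3 of 8, Snord71, Snora73a and Snord89 in 1, and Snord35b in 0 (highest adjusted p = 0.25).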

How the results depend on the processing

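No comparison turned its direction for a named difference under any alternative run. Under quantile normalization the members' median turned from -0.01 to 0.11 for BERKO NPC to mDPC and from 0.03 to -0.02 for genotype in untreated MN. The cause of each change below was not tested. With the compared groups alone, members called numbered 0 for genotype in mESC, 5 in mDPC, 2 in MN, 4 in mDPC and 6 in MN with LY3201, 35 for WT NPC to mDPC, 0 for LY3201 in WT MN, in BERKO MN and averaged, and 9 and 2 for the genotype difference of NPC to mDPC and of mDPC to MN; genotype averaged was not run that way, since it uses the same arrays. Quantile normalization gave 4 for genotype in mESC (2 higher, 2 lower), 6 in NPC, 2 in mDPC (1 higher, 1 lower), 4 for LY3201 in WT MN, 1 for LY3201 averaged, 5 for the genotype difference of mESC to NPC and 0 for that of LY3201 in NPC. Averaging arrays with a shared title number gave 1 for genotype in mESC, 2 in mDPC, 1 in NPC with LY3201, 1 for LY3201 averaged, and 2 and 0 for the genotype difference of mESC to NPC and of LY3201 in NPC. The filter on negative controls gave 2 for genotype in mDPC, 2 for LY3201 in WT NPC, 4 averaged and 15 for the genotype difference of LY3201 in NPC, where no filter gave 3; no filter gave 0 for LY3201 in BERKO MN. Another cluster of the gene gave 1 for LY3201 averaged and 1 for the genotype difference of NPC to mDPC.

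On leaving out 1 array, counts ranged from 3 to 15 for genotype in NPC, 0 to 1 in mDPC, 2 to 5 in MN, and 0 to 6, 4 to 24 and 10 to 18 in NPC, mDPC and MN with LY3201. They ranged from 10 to 14 for WT NPC to mDPC, 8 to 12 and 20 to 30 for BERKO NPC to mDPC and mDPC to MN, 0 to 10 and 0 to 1 for LY3201 in WT and BERKO MN, and 0 to 8 averaged. For genotype differences they were 2 to 6 (mESC to NPC), 0 to 2 (NPC to mDPC), 2 to 5 (mDPC to MN), 0 to 8 (LY3201 in NPC) and 0 to 1 (LY3201 in MN). Of named differences, 20 of 139 lost their call under quantile normalization, 23 on averaging, 37 of 131 with the groups alone, 11 without a filter, 1 with the trended prior, 4 of 15 with another cluster, and 0 of 134 with the filter on negative controls. No paired analysis was possible because no compared groups share more than 1 number in their titles; treated MN of both genotypes share 1. The 12 members never above the negative controls' 95th percentile have values that probe background limits. The same holds for the 14 members above it in some arrays, in those arrays where they lay below it.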
